A study of Homo sapiens with 6 samples.

Results

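The genes described here are those whose expression at day 4 of mesoderm differentiation stood apart from both the starting cells and the day 21 product. Total RNA was hybridised to 6 Affymetrix expression arrays, 2 for each of 3 stages of WA09, an established line of human embryonic stem cells. The hESC arrays hold undifferentiated cells kept in StemPro, a defined medium. The INM arrays hold nascent mesoderm labelled as positive for the transcription factor ISL1, after 4 days in that medium plus 25 ng/ml of Wnt3a and 50 ng/ml of BMP4, and the SMC arrays hold smooth muscle cells after 21 days with the same 2 factors. Each stage comes from 1 cell line, and the labels do not say whether the 2 arrays of a stage are separate cultures. The spread behind each p-value is therefore that between these samples alone, and it may be technical. No untreated culture of day 4 or day 21 was analysed here. In bulk RNA, fewer cells of a type and less RNA per cell cannot be told apart.

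Both INM arrays were set against the 4 hESC and SMC arrays together, as INM minus the mean of the hESC and SMC group means, called the day 4 contrast below. Values are log2 expression values, so that a difference of 1 is a doubling. Of 18417 genes tested, 2916 (15.8%) had both INM arrays above all 4 others and 2612 (14.2%) had both below, which is the choice itself and not a test. In limma's moderated test of the day 4 contrast, 2543 genes (13.8%) were called higher and 1905 (10.3%) lower at a Benjamini-Hochberg adjusted p under 0.05. Genes that met both conditions are called peak genes, of which there were 1933 (10.5%), or dip genes, of which there were 1321 (7.17%).

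BMP ligands bind paired serine/threonine kinase receptors and act through SMAD proteins, which switch on ID, MSX, DLX and GATA genes together with inhibitors of the pathway itself. Wnt ligands stabilise beta-catenin, which works with LEF and TCF factors and likewise induces its own inhibitors. In the embryo both signals pattern the primitive streak and the lateral plate, where HAND1 and ISL1 mark precursors of heart, limb and body wall, and BMP also directs amnion and trophoblast, which use HAND1, GATA3 and TFAP2A too.

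The promoters of 3 targets that the results turn on and of the leading protein-coding dip gene are shown to give their base composition and the motifs found in them. Each line holds the 250 bases before the start site in RefSeq's GRCh38.p14 annotation, 5′ to 3′, with capitals marking a match to a searched motif.
GATA3 (chr10:8045083-8045332, plus strand): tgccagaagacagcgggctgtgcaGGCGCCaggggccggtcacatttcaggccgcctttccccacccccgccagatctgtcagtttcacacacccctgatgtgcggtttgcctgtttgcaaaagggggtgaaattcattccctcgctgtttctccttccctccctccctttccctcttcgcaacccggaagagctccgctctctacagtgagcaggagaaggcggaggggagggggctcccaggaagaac
MSX2 (chr5:174724332-174724581, plus strand): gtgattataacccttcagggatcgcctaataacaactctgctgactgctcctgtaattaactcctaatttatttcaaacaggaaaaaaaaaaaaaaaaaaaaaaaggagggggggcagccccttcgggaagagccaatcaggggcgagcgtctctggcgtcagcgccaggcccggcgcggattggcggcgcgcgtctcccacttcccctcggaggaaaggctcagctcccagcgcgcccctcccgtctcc
ID2 (chr2:8681806-8682055, plus strand): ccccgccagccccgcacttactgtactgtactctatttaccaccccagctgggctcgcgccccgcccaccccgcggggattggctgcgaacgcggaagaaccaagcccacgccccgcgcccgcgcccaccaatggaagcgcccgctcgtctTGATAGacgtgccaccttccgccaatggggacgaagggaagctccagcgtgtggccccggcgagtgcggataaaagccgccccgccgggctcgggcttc
IFITM1 (chr11:313790-314039, plus strand): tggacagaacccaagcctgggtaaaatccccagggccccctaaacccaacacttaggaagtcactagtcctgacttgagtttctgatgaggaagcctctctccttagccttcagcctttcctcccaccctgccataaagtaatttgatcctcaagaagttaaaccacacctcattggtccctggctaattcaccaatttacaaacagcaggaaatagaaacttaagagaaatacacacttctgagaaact
GATA3 held 1 SMAD motif (GGCGCC), 226 bases before the start, and ID2 held 1 GATA motif (TGATAG), 99 bases before the start. None of the motifs searched was found in these letters of MSX2 or IFITM1.

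The INM label was checked against 13 markers of nascent and lateral mesoderm. ISL1, the factor in the label and a LIM homeobox protein of cardiac progenitors, read 5.54 and 5.28 on the hESC arrays, 9.46 and 9.55 on the INM arrays and 6.41 and 6.31 on the SMC arrays. Both INM values lay above all 4 others, with a contrast of 3.62 (SE 0.11, adjusted p = 3.6e-05 in limma). Of the 13 markers, 6 were called higher, 0 lower and 4 were peak genes. Over all genes, 13.8% were called higher, 10.3% lower and 10.5% were peak genes. The mean level of the markers was 6.68 to 6.77 in hESC, 8.47 to 9.12 in INM and 8.36 to 8.38 in SMC. The first INM array, at 8.47, thus lay close to SMC. Not all streak genes followed ISL1. TBXT, the Brachyury factor of the primitive streak, read 5.98 and 6.13 in INM against 5.64 to 6.13 elsewhere, and EOMES read 6.13 and 6.44 against 5.94 to 6.14. Neither was called (adjusted p = 0.27 and 0.20). KDR, a receptor of early mesoderm, read 9.09 in one INM array and 11.47 in the other, on either side of its 4 other values of 10.28 to 10.30.

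Markers of undifferentiated cells were not all lost at day 4. The mean of 9 such markers was 10.03 to 10.04 in hESC, 7.60 to 7.79 in INM and 6.35 to 6.39 in SMC. SOX2, which maintains pluripotency, fell from 11.44 and 11.47 to 5.63 and 5.81 in INM and read 5.76 and 5.61 in SMC, so it was called lower (contrast -2.85, SE 0.11, adjusted p = 4.9e-05) without being a dip gene. LIN28A, an RNA-binding protein that blocks let-7 processing, still read 10.39 and 11.76 in INM against 12.10 and 12.08 in hESC, and 6.46 and 6.21 in SMC.

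The INM arrays were less alike than the other pairs. They differed by more than 1 in 700 genes, against 16 for the hESC arrays and 11 for the SMC arrays. The first INM array read lower than the second in all 24 DNA replication genes measured (median gap -0.75) and in all 20 mitosis genes (median gap -1.08), while the YAP target genes, which report actin tension and cell density, stood higher in the first (median gap 0.64). The part of this difference in the day 4 contrast was not tested.

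Peak genes outnumbered dip genes more clearly as the difference grew. Height is the smaller of INM minus hESC and INM minus SMC for a peak gene, and the smaller fall for a dip gene. Its median was 0.48 in peak genes and 0.42 in dip genes. Height passed 1 in 274 peak genes and 86 dip genes, and passed 2 in 62 and 5. A stricter test, which takes the larger p of the differences from hESC and from SMC, kept 403 peak genes and 172 dip genes. The balance of all calls depended on scaling: 57.2% of called genes were higher on the deposited values, 46.8% after median centring and 46.6% after quantile normalization. Each array was also left out in turn. A fit without 1 INM array takes its spread from the hESC and SMC pairs alone, so its calls do not test the uneven INM arrays. Leaving out any 1 hESC or SMC array brought the calls to 1163 to 1422 higher and 804 to 1035 lower, while leaving out an INM array gave 3016 to 3751 higher and 2447 to 2483 lower. Of the genes with a height over 1, 241 of 274 peak genes and 79 of 86 dip genes kept their call and position in all 6 such fits.

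The SMC minus hESC difference is given as a description and not as a test, since the choice of members used the same 4 arrays and the calls share the estimate of spread with the INM arrays. Of the peak genes, 592 (30.6%) were called higher in SMC than in hESC and 215 (11.1%) lower, beside 19.7% and 17.6% of all genes. Among dip genes 227 (17.2%) were higher in SMC and 366 (27.7%) lower. The remaining 1126 peak genes (58.3%) and 728 dip genes (55.1%) were not called between SMC and hESC, beside 62.8% of all genes. A missed call does not show that the 2 levels are equal. Another 335 genes called higher and 328 called lower had the INM mean between the other group means, and they are not part of either set.

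**Figure D1:**
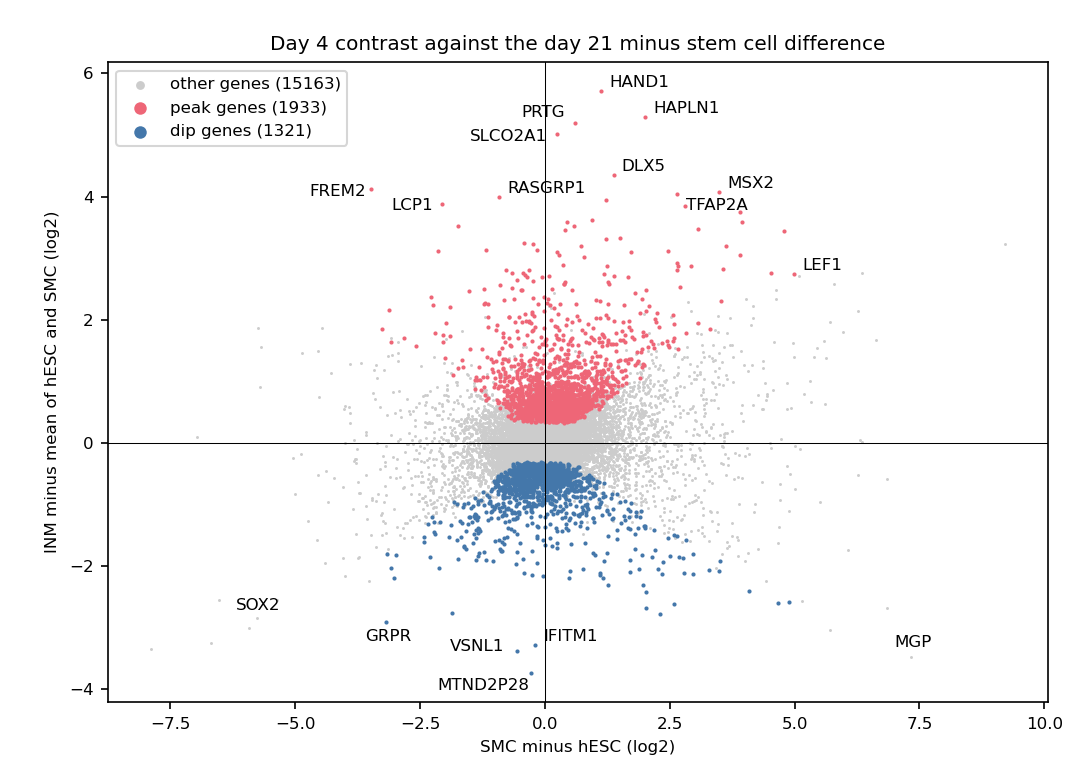
Day 4 contrast (y axis, log2) against the SMC minus hESC difference (x axis, log2), with 1 point per gene. The 1933 peak genes and 1321 dip genes are coloured, HAND1 is the highest peak gene at 5.71, and MTND2P28 is the lowest dip gene at -3.74.

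HAND1 had the largest height. This basic helix-loop-helix factor of lateral and extraembryonic mesoderm and trophoblast read 6.10 and 6.09 on the hESC arrays, 12.32 and 12.42 on the INM arrays and 7.31 and 7.14 on the SMC arrays. The INM arrays were within 0.09 of each other and at least 5.01 above any other array, and the means were 77.2-fold above hESC and 35.3-fold above SMC (contrast 5.71, SE 0.10, adjusted p = 8.9e-06). PRTG, an immunoglobulin-family receptor of early embryonic tissue, read 6.44 and 6.32, then 11.37 and 12.39, then 6.88 and 7.09 (contrast 5.19, SE 0.27, adjusted p = 1.5e-04). SLCO2A1, the prostaglandin transporter, read 6.32 and 6.24, then 11.53 and 11.30, then 6.39 and 6.67 (contrast 5.01, SE 0.13, adjusted p = 2.7e-05). For both PRTG and SLCO2A1 the SMC values lay close to the hESC values, and the difference was not called (adjusted p = 0.17 and 0.24).

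HAPLN1 and DLX5 kept part of their rise at day 21. HAPLN1, the link protein that ties proteoglycans to hyaluronan, read 5.77 and 5.93 on the hESC arrays, 11.87 and 12.39 on the INM arrays and 7.96 and 7.73 on the SMC arrays, where it was still 2.00 above hESC (adjusted p = 4.6e-04). DLX5, a homeobox factor of the branchial arches and ectoderm, read 5.46 and 5.81, 10.78 and 10.55, and 6.90 and 7.11, with SMC above hESC by 1.37 (adjusted p = 1.1e-03). LCP1, the actin-bundling L-plastin, went the other way: it read 8.36 and 8.47 on the hESC arrays, 11.25 and 11.28 on the INM arrays and 6.40 and 6.30 on the SMC arrays, and was 2.07 below its starting level at the end (SMC minus hESC -2.07, adjusted p = 5.2e-05).

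The 20 peak genes of largest height were all protein coding, with heights from 2.70 to 5.14. Several encode secreted or surface proteins. ANGPT2 encodes an angiopoietin that binds the TIE2 receptor, CDH10 a cadherin, CLSTN2 a calsyntenin, ITGB6 the integrin beta 6 chain, VTCN1 a B7-family inhibitor of T cells, MFAP5 a microfibril protein and PRSS12 the protease neurotrypsin. PRSS12 read 7.27 and 7.24, 10.36 and 10.23, and 6.70 and 6.98, and its INM arrays agreed closely. Others were uneven: the INM arrays were more than 1 apart in 9 of the 20. ANGPT2 read 7.48 and 9.55 in INM against 4.77 to 5.33 elsewhere, and MFAP5 read 10.95 and 8.02 against 6.28 to 6.68. The MFAP5 call was lost without any 1 of the hESC or SMC arrays, and its contrast ranged from 1.59 to 4.52 over the 6 fits. Fits without 1 INM array take their spread from the hESC and SMC pairs alone. A call kept in them therefore does not show that uneven INM arrays leave it unchanged. In 5 of the 20 at least 1 stage averaged below 5.04, a limit set at the lowest of the 6 array medians of unnamed probe sets, so no fold is given for them.

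**Figure D2:**
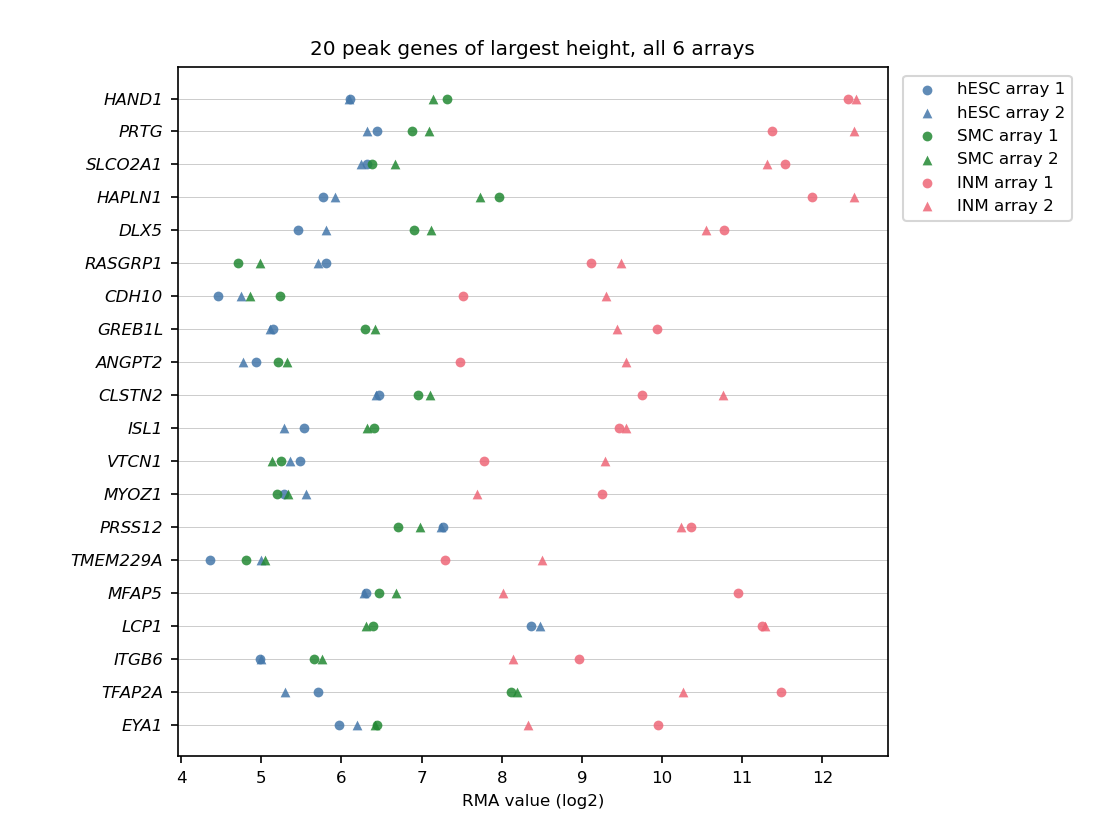
Log2 value (x axis) of the 20 peak genes of largest height (y axis, largest at the top) in all 6 arrays, coloured by stage and shaped by array. In every gene both INM points lie to the right of the other 4, and the INM points of MFAP5 lie furthest apart, at 10.95 and 8.02.

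Targets of BMP signalling had the highest share of peak genes of any list. Of 18 measured, 15 were called higher, 0 lower and 3 neither, and 14 (77.8%) were peak genes, beside 10.5% of all genes. The median contrast was 1.89, beside -0.00 over all genes. All 14 stayed peak genes when any 1 array was left out. MSX2, a homeobox repressor, read 5.74 and 5.57 on the hESC arrays, 11.59 and 11.35 on the INM arrays and 9.08 and 9.22 on the SMC arrays, and was still 3.50 above hESC at day 21 (adjusted p = 2.4e-05). GATA3, a zinc finger factor of trophoblast, amnion and surface ectoderm, read 5.64 and 5.48, 9.48 and 9.47, and 6.64 and 6.95 (contrast 3.30, SE 0.12, adjusted p = 4.9e-05). The day 4 values of both genes stood clear of every other array.

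The inhibitors of differentiation, which block basic helix-loop-helix factors, moved less far. ID2 read 8.74 and 8.97 on the hESC arrays, 11.01 and 11.18 on the INM arrays and 9.42 and 9.39 on the SMC arrays (contrast 1.96, SE 0.11, adjusted p = 2.4e-04). The contrast was 1.25 for ID1 and 1.24 for ID4 (adjusted p = 2.5e-03 and 2.6e-03). ID3 was not called: its INM arrays read 10.16 and 8.56 against 8.56 to 9.28 elsewhere. Among the feedback inhibitors, SMAD6, which blocks the BMP branch, had a contrast of 1.34, and SMAD7, which also blocks TGF-beta receptors, had 1.17 (both adjusted p = 8.8e-04). BAMBI, a decoy receptor, read 12.42 and 12.51 in INM and 12.30 and 12.23 in SMC, so its height was only 0.20 although it rose by 3.50 from hESC.

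Extracellular BMP antagonists went both ways. NOG encodes noggin, which binds BMP ligands. It read 5.48 and 5.18 on the hESC arrays, 10.31 and 8.52 on the INM arrays and 6.80 and 6.87 on the SMC arrays (contrast 3.33, SE 0.44, adjusted p = 3.8e-03). Its INM arrays were uneven, yet the lower one was 1.65 above the highest other array. GREM1, another antagonist, was called lower at day 4 (contrast -1.63, adjusted p = 4.8e-03) because SMC read 11.71 and 11.83 against 8.26 and 7.37 in INM. Of 26 BMP ligands, receptors and antagonists, 9 were called higher and 3 lower. Peak genes were 7 of the 26 (26.9%), beside 10.5% of all genes. BMP4 itself, also supplied in the medium, read 7.81 and 7.65, 10.67 and 11.83, and 9.41 and 9.38 (contrast 2.69, SE 0.29, adjusted p = 1.8e-03). These arrays measure the cells' own transcript, not the added protein.

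MSX and DLX homeobox genes overlap the BMP target list in 4 members. Of 8 measured, 5 (62.5%) were peak genes, beside 10.5% of all genes, with a median contrast of 1.69. MSX1 read 6.62 and 6.87, 9.17 and 9.03, and 7.56 and 7.64 (contrast 1.93, SE 0.12, adjusted p = 2.5e-04). DLX6 moved by 0.68 (adjusted p = 7.9e-03). DLX2 read 9.33 and 7.78 in INM against 6.13 to 7.01, and lost its call without either hESC array or the first SMC array (adjusted p up to 0.058). DLX1 (contrast 1.46, adjusted p = 0.069), DLX3 (0.66, adjusted p = 0.072) and DLX4 (-0.09, adjusted p = 0.63) were not called.

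Markers of trophoblast and amnion formed another list with a high share, beside 10.5% of all genes. It shares GATA2, GATA3 and TBX3 with the BMP target list. Of 22 measured, 13 were called higher and 0 lower, and 11 (50.0%) were peak genes, with a median of 1.15. Without ISL1, HAND1 and TBX3, which lateral mesoderm also uses, 10 of 19 were called higher and 8 were peak genes, and their mean level was 5.75 to 5.85 in hESC, 7.03 to 7.48 in INM and 6.08 to 6.17 in SMC. TFAP2A, an AP-2 factor shared with neural crest and surface ectoderm, read 5.71 and 5.30, 11.49 and 10.27, and 8.12 and 8.19 (contrast 4.05, SE 0.32, adjusted p = 6.2e-04). The simple-epithelium keratin KRT7 read 6.33 and 6.01, 9.83 and 8.05, and 6.35 and 6.74 (contrast 2.58, SE 0.45, adjusted p = 9.6e-03). Both genes stood above every other array, with the first INM array higher.

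Defining genes of mature trophoblast were less regular. CGA, the alpha chain of chorionic gonadotropin, read 7.75 in the first INM array and 5.12 in the second, against 5.30 to 5.75 elsewhere, and was not called (adjusted p = 0.32). ELF5, a trophoblast stem cell factor, read 5.55 and 5.37 against 5.41 to 5.68 (adjusted p = 0.55). GCM1, which drives syncytiotrophoblast formation, read 5.68 and 4.67 in INM (adjusted p = 0.47). HSD3B1, a steroid dehydrogenase of placenta, was a peak gene at 8.06 and 6.35 against 5.31 to 5.90, but lost its call without any 1 hESC or SMC array (adjusted p up to 0.11). Of the 19 markers, 2 had an INM mean under 5.04. The part of such cells in the day 4 values of BMP targets and lateral mesoderm genes was not tested.

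Lateral plate and cardiac mesoderm genes also held peak genes, but this list shares members with those above. ISL1, HAND1 and TBX3 are also on the trophoblast and amnion list, and TBX3 and HEY1 on the BMP target list. BMP4 is also on the list of BMP ligands. Most members are transcription factors, but BMP4 is a ligand, and PDGFRA and KDR are receptors. Of the 28 lateral plate and cardiac genes measured, 13 were called higher and 0 lower, with a median of 0.68. Peak genes were 8 of the 28 (28.6%), beside 10.5% of all genes. TBX3, a T-box repressor of cardiac and limb fields, read 6.31 and 6.24, 10.24 and 10.57, and 8.90 and 8.96 (contrast 2.80, SE 0.12, adjusted p = 7.7e-05). HEY1, a Notch effector of the atria and vessels, read 6.31 and 6.27, 9.71 and 9.56, and 8.06 and 8.15 (contrast 2.43, SE 0.10, adjusted p = 6.8e-05). Both were lower in SMC than in INM but stayed above hESC. Other members of this list climbed to the end: TBX20, a cardiac T-box factor, read 9.58 and 10.69 in INM and 11.57 and 11.56 in SMC, and GATA4, a zinc finger factor of heart and gut, read 8.74 and 10.34 in INM and 10.67 and 10.73 in SMC.

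**Figure D3:**
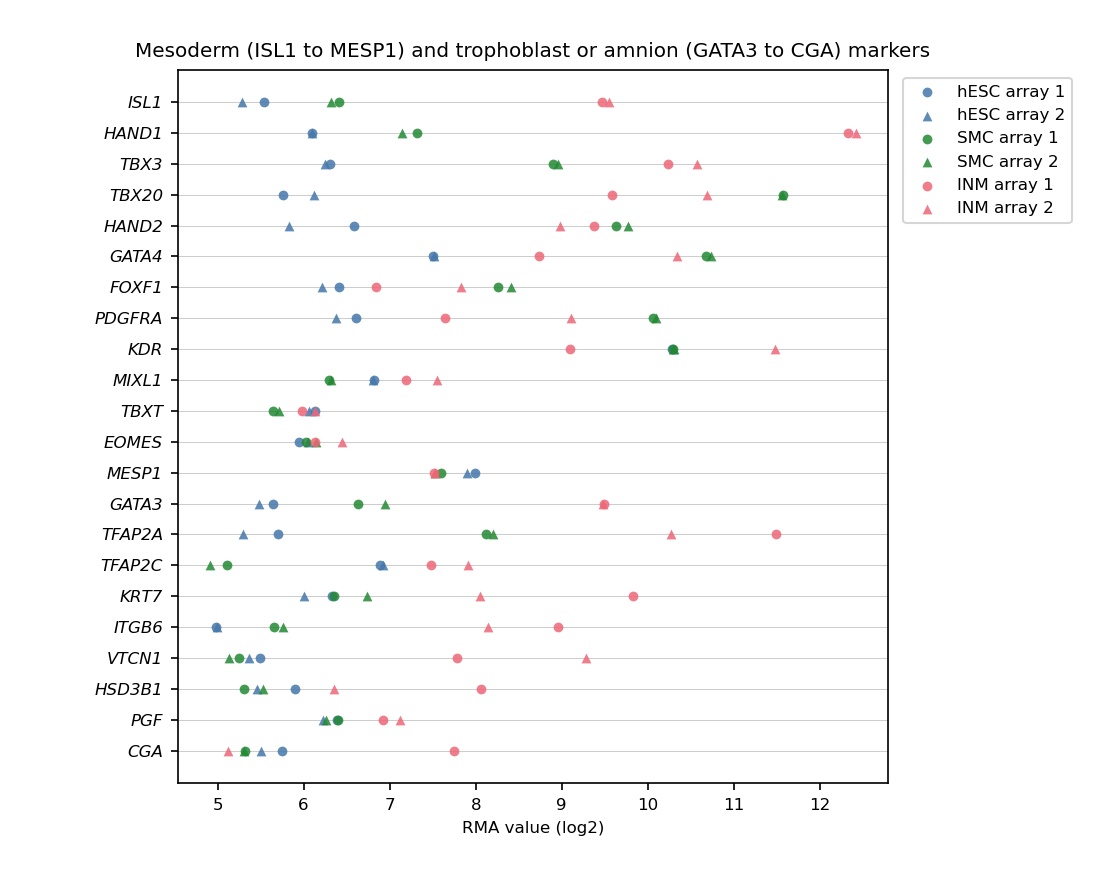
Log2 value (x axis) of named mesoderm markers (ISL1 to MESP1) and trophoblast or amnion markers (GATA3 to CGA) on the y axis, in all 6 arrays, coloured by stage and shaped by array. The INM points of ISL1, HAND1 and GATA3 lie to the right of the other 4, those of TBX20 and GATA4 lie between hESC and SMC, and those of KDR (9.09 and 11.47) and CGA (7.75 and 5.12) lie on both sides of the rest.

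Neural crest markers share TFAP2A, MSX1, MSX2 and TWIST1 with the lists above. Of 14 measured, 9 were called higher and 1 lower, with a median of 0.81. Peak genes were 7 of the 14 (50.0%), beside 10.5% of all genes. ETS1, a factor of migrating crest and of vessels, read 8.34 and 8.39, 9.51 and 9.28, and 8.22 and 8.24 (contrast 1.10, SE 0.11, adjusted p = 1.2e-03). B3GAT1, which makes the HNK1 epitope, was the single dip gene (contrast -0.47, adjusted p = 0.017), and lost its call without the first hESC array or either SMC array (adjusted p up to 0.0713).

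Peak genes made up 11.8% of streak factors, 5.88% of paraxial and intermediate mesoderm genes and 11.1% of HOX genes, beside 10.5% of all genes. Over all genes, 13.8% were called higher and 10.3% lower. Of 17 primitive streak and nascent mesoderm factors, 2 were called higher and both were peak genes. EVX1, a posterior streak homeobox gene, read 7.62 and 8.44 in INM against 6.38 to 7.17 (contrast 1.24, adjusted p = 0.013), and lost its call without the first hESC or the first SMC array (adjusted p up to 0.057). MIXL1, a homeobox factor of mesendoderm, read 7.19 and 7.55 against 6.30 to 6.82 (contrast 0.81, adjusted p = 6.1e-03). Of 17 paraxial and intermediate mesoderm genes 1 was called higher (PAX3, contrast 0.65) and 2 lower (MEOX2, -0.40, and RIPPLY1, -0.49). The SMC mean of PAX3 lay under 5.04. Each of these 3 lost its call without at least 1 hESC or SMC array. Of 27 HOX genes, 4 were called higher (HOXB2, HOXB4, HOXB6 and HOXC13) and 1 lower (HOXC9), and all but HOXB2 lost the call without any 1 hESC or SMC array. HOXC9 turned sign with centring on unnamed probe sets. HOXB2 read 6.14 and 6.23, 8.68 and 8.85, and 7.83 and 8.10 (contrast 1.69, SE 0.12, adjusted p = 4.4e-04).

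Of 42 Wnt ligands, receptors and secretion genes, 11 were called higher and 4 lower, with a median of 0.16. Peak genes were 10 of them (23.8%), beside 10.5% of all genes. WLS, the carrier that brings Wnt proteins to the surface, read 6.36 and 6.45 on the hESC arrays, 11.98 and 11.96 on the INM arrays and 10.42 and 10.29 on the SMC arrays (contrast 3.59, SE 0.10, adjusted p = 2.9e-05). WNT5A, a ligand of the beta-catenin-independent branch, read 5.25 and 5.45, 8.72 and 9.73, and 8.08 and 8.02 (contrast 2.52, SE 0.26, adjusted p = 1.5e-03). The receptor FZD6 peaked with a contrast of 1.25 (adjusted p = 6.6e-04). FZD7 and FZD5, receptors high in stem cells, were called lower (contrasts -1.26 and -0.93) but SMC lay as low or lower.

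Canonical Wnt targets rose in part. Of 17 measured, 8 were called higher and 0 lower, and the median was 0.54. Peak genes were 6 of the 17 (35.3%), beside 10.5% of all genes. RNF43, a ubiquitin ligase that removes Frizzled receptors, read 6.05 and 5.95, 7.92 and 8.14, and 5.46 and 5.31 (contrast 2.34, SE 0.11, adjusted p = 1.2e-04), and fell below its starting level by day 21. NKD1, an inhibitor of Dishevelled, read 7.54 and 7.47, 9.63 and 9.03, and 7.68 and 7.83 (contrast 1.71, SE 0.17, adjusted p = 1.4e-03). AXIN2, the scaffold of the beta-catenin destruction complex, read 7.89 and 8.58 in INM against 7.15 to 7.66 (contrast 0.80, adjusted p = 0.028), and lost its call without any 1 hESC or SMC array (adjusted p up to 0.0996). LEF1, a nuclear partner of beta-catenin, read 5.33 and 5.38, 10.44 and 10.75, and 10.37 and 10.33. It is a peak gene by a height of only 0.25. Among the secreted antagonists, DKK1 read 5.21 and 5.05, 12.00 and 10.11, and 11.45 and 11.51, so it was high at both later stages, while NOTUM, which strips the lipid from Wnt, was the single peak gene of 15 measured (contrast 0.54, lost without the second hESC or either SMC array, adjusted p up to 0.064).

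**Figure D4:**
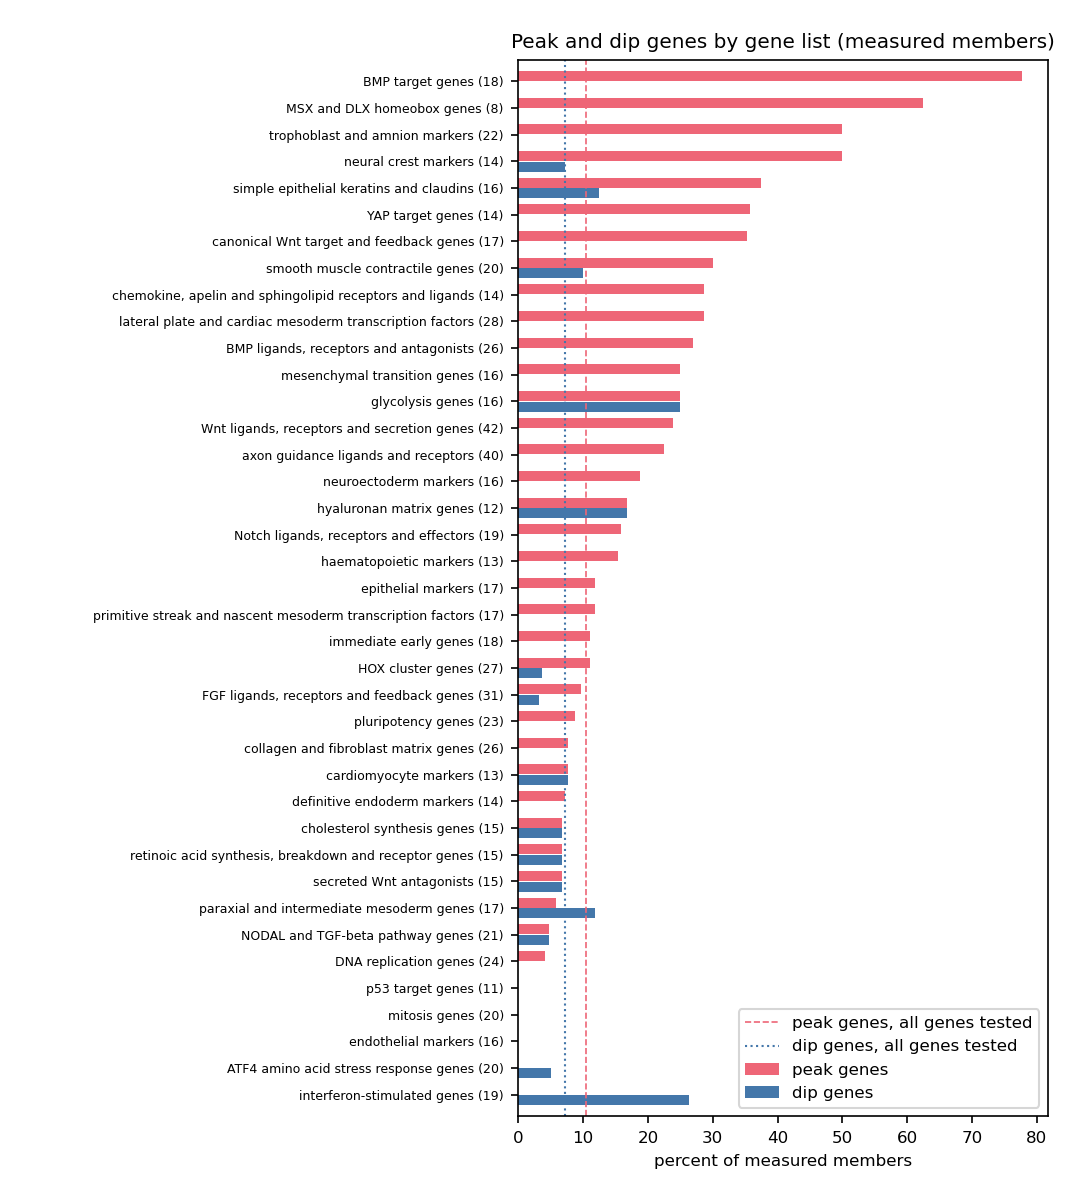
Percent of each list's measured members that were peak genes or dip genes (x axis), for the 39 lists (y axis), with the values over all genes (10.5% and 7.17%) as lines. BMP targets have the largest peak share, 77.8%, and interferon-stimulated genes the largest dip share, 26.3%.

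Peak genes made up 4.76% of NODAL and TGF-beta genes, 9.68% of FGF genes and 15.8% of Notch genes, beside 10.5% of all genes. Over all genes, 13.8% were called higher and 10.3% lower. Of 21 NODAL and TGF-beta pathway genes, 5 were called higher and 5 lower, and only SMAD7 peaked. Of 31 FGF pathway genes, 5 were called higher and 4 lower. FGF18, a ligand of limb and lung, read 8.58 and 7.81 in INM against 6.25 to 6.97 (contrast 1.60, adjusted p = 4.8e-03). The receptor FGFR1 was a dip gene (contrast -0.72, adjusted p = 3.4e-03). Of 19 Notch genes, 3 were called higher, all peak genes: HEY1, HEY2 (contrast 1.78, adjusted p = 7.5e-03) and the ligand JAG1 (1.54, adjusted p = 0.015), whose call was lost without any 1 hESC or SMC array. RARB, a retinoic acid receptor, read 4.58 and 4.80, 7.67 and 7.93, and 6.97 and 6.82 (contrast 2.01, adjusted p = 2.9e-04). Its hESC values lay under 5.04, so the difference is one of measured values near the low-signal level and no fold is given.

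Of 14 YAP target genes, 6 were called higher and 5 (35.7%) were peak genes, beside 10.5% of all genes. ANKRD1, a muscle ankyrin repeat protein, read 6.65 and 6.81, 12.53 and 11.41, and 9.51 and 9.55 (contrast 3.84, SE 0.29, adjusted p = 4.9e-04). Its first INM array was the higher one, as in 10 of the 14 targets, while AMOTL2 read higher in the second (8.11 and 8.42).

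Genes of mesenchymal transition and some keratins were called higher at day 4. Of 16 genes of mesenchymal transition, 11 were called higher and 0 lower. Peak genes were 4 of the 16 (25.0%), beside 10.5% of all genes. Their heights were 1.79 for SNAI1, 0.60 for TCF4, 0.18 for KLF8 and 0.10 for TWIST1. The count of peak genes was 2 after median centring, 3 after quantile normalization and 7 after centring on unnamed probe sets. SNAI1, a repressor of E-cadherin, read 9.33 and 9.01 in INM, above all 4 others, of which SMC array 2 was the highest at 7.52 (contrast 2.01, SE 0.14, adjusted p = 4.2e-04). Of 16 simple keratins and claudins, 8 were called higher and 3 lower, with 6 peak genes (37.5%) and 2 dip genes (12.5%). KRT19 read 8.68 and 8.67, 10.54 and 11.54, and 8.06 and 8.16 (contrast 2.65, SE 0.26, adjusted p = 1.2e-03). DSP, the desmosomal plaque protein desmoplakin, read 9.06 and 9.12, 10.61 and 11.28, and 9.35 and 9.28 (contrast 1.75, adjusted p = 1.7e-03). The tight junction gene CLDN1 went down instead, to 6.76 and 7.05 against 7.89 to 8.33 (contrast -1.23, adjusted p = 1.2e-03). Whether single cells carried both kinds of transcript cannot be told apart from a mixture in these arrays.

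Guidance and migration receptors were also represented. Of 40 axon guidance ligands and receptors, 15 were called higher and 1 lower, and the median was 0.47. Peak genes were 9 of the 40 (22.5%), beside 10.5% of all genes. EFNB2, an ephrin of arteries and somites, read 7.36 and 7.48, 9.52 and 9.75, and 7.70 and 7.66 (contrast 2.08, SE 0.11, adjusted p = 1.6e-04). EFNA1 followed the same course at a contrast of 1.83 (adjusted p = 4.4e-04). Of 14 chemokine, apelin and lipid receptors and ligands, 4 (28.6%) were peak genes. APLNR, the apelin receptor of gastrulating mesoderm, read 6.73 and 6.13, 9.47 and 11.80, and 9.01 and 9.20 (contrast 2.87, adjusted p = 0.016), and its call was lost without any 1 hESC or SMC array (adjusted p up to 0.066). EDNRB, an endothelin receptor, read 8.22 and 8.41, 9.10 and 8.74, and 5.17 and 5.21, so most of its contrast of 2.16 came from the fall at day 21.

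Smooth muscle genes were called in both directions. Of 20 smooth muscle contractile genes, 9 were called higher and 2 lower. They held 6 peak genes (30.0%) and 2 dip genes (10.0%), beside 10.5% and 7.17% of all genes. MYOCD, myocardin, the coactivator of serum response factor that drives the smooth muscle programme, read 6.42 and 6.46, 8.89 and 9.69, and 7.57 and 7.53 (contrast 2.30, SE 0.21, adjusted p = 1.0e-03). ACTG2, the enteric smooth muscle actin, did the opposite at 9.62 and 9.75, 8.81 and 7.90, and 12.23 and 12.30 (contrast -2.62, SE 0.24, adjusted p = 9.9e-04). ACTA2, the vascular actin, rose at both steps and was no peak gene, at 11.97 and 10.85 in INM and 13.09 and 13.03 in SMC. Of 26 collagen and fibroblast matrix genes, 9 were called higher and 3 lower, beside 13.8% and 10.3% of all genes. Beside 10.5% of all genes, 2 of the 26 (7.69%) were peak genes. They were FBLN1 (contrast 1.29, adjusted p = 1.1e-03) and FBN2 (contrast 1.52, adjusted p = 1.4e-03), which encode the microfibril-associated proteins fibulin 1 and fibrillin 2. Of 12 hyaluronan matrix genes, HAPLN1 and ACAN peaked, and TNFAIP6 and VCAN dipped. TNFAIP6, a hyaluronan-binding protein, read 7.58 and 7.59, 6.46 and 5.43, and 9.82 and 9.96 (contrast -2.79, SE 0.26, adjusted p = 1.1e-03).

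The dip genes included more RNAs that do not code for protein. Of the 15 dip genes of largest height, 10 were protein coding. MTND2P28, a nuclear pseudogene of mitochondrial ND2, had the largest height and read 10.02 and 10.32 on the hESC arrays, 6.42 and 6.15 on the INM arrays and 9.96 and 9.82 on the SMC arrays (contrast -3.74, SE 0.14, adjusted p = 4.8e-05). Its near-identical mitochondrial copy may hybridise to the same probes, so the source of the signal is uncertain. IFITM1, an interferon-induced membrane protein, read 12.21 and 12.22, 8.02 and 9.62, and 12.02 and 12.02 (contrast -3.29, SE 0.39, adjusted p = 2.6e-03). VSNL1, a neuronal calcium sensor, read 11.12 and 11.18, 6.81 and 8.16, and 10.55 and 10.61 (contrast -3.38, SE 0.34, adjusted p = 1.3e-03). All 3 were near their hESC level again at day 21, and in none was SMC minus hESC called (adjusted p = 0.21, 0.77 and 0.30).

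THY1, the surface glycoprotein CD90 of stem cells and fibroblasts, read 10.82 and 10.88, 9.51 and 8.86, and 11.53 and 11.70 (contrast -2.05, SE 0.19, adjusted p = 9.7e-04). MMP16, a membrane metalloproteinase, read 9.25 and 9.46, 7.48 and 7.33, and 9.84 and 9.84 (contrast -2.19, SE 0.11, adjusted p = 1.4e-04), and its other probe set moved likewise (contrast -2.73). Both genes ended above their starting level. NPY1R, a neuropeptide Y receptor, read 3.99 and 5.88 in INM, far from each other, against 6.56 to 8.71 elsewhere. SERPINB4, a serpin with the close copy SERPINB3, read 3.50 and 3.42 in INM against 5.14 to 7.47, below the 5.04 limit.

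Among these 15 dip genes, 2 were miRNA genes. Their mature 3′ strands in RefSeq's GRCh38.p14 annotation are shown with bases 2 to 8, the seed that pairs with targets, in capitals. These seeds tell apart the targets of the printed strands only. The opposite strand of each precursor is not shown.
hsa-miR-221-3p (chrX:45746180-45746202, minus strand): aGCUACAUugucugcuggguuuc
hsa-miR-186-3p (chr1:71067642-71067663, minus strand): gCCCAAAGgugaauuuuuuggg
The seeds differ. The array reads MIR221 at 6.50 and 6.70, 4.94 and 3.89, and 6.58 and 6.52 (contrast -2.16, SE 0.27, adjusted p = 3.0e-03), and MIR186 at 5.70 and 5.55, 3.98 and 3.60, and 6.28 and 5.96 (contrast -2.08, SE 0.15, adjusted p = 4.7e-04). Expression arrays of this kind read precursor or host transcripts and not the mature miRNA, and the INM values of both lie under 5.04. SNORA23, which guides pseudouridine formation, read 12.67 and 12.92, 10.06 and 10.98, and 12.54 and 12.53 (contrast -2.15, SE 0.25, adjusted p = 2.2e-03).

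**Figure D5:**
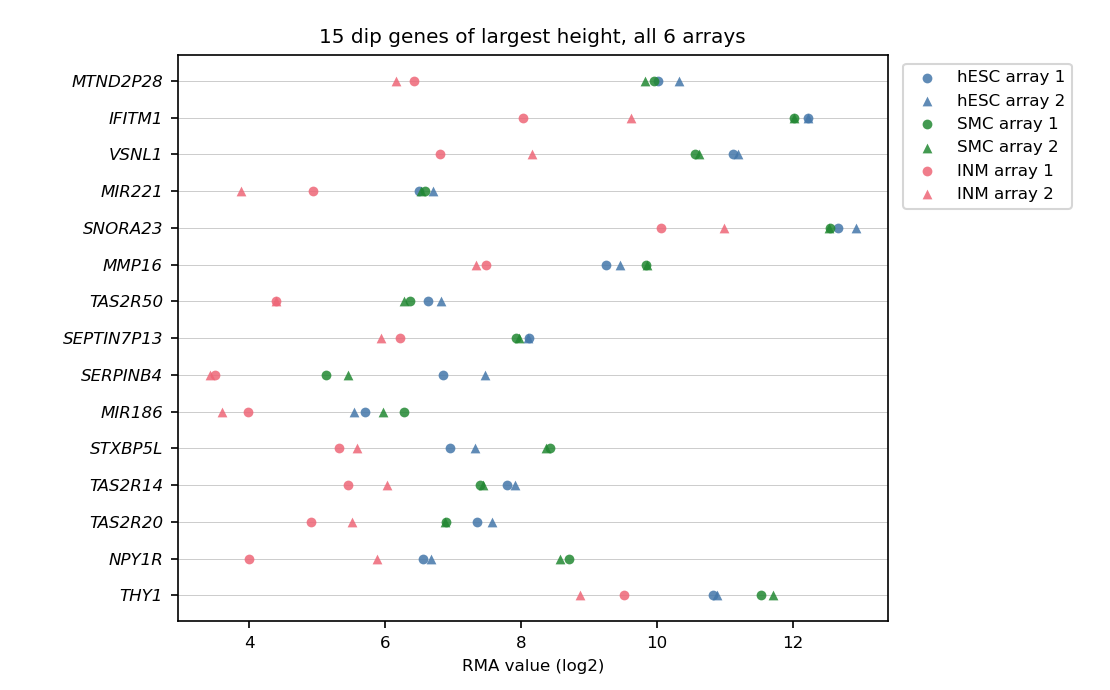
Log2 value (x axis) of the 15 dip genes of largest height (y axis, largest at the top) in all 6 arrays, coloured by stage and shaped by array. Both INM points lie to the left of the other 4 in each gene, and several lie below the 5.04 limit, such as TAS2R50 at 4.40 in both arrays.

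By gene class, 57 of 175 snoRNA genes (32.6%) and 36 of 173 miRNA genes (20.8%) were dip genes, against 1099 of 16902 protein-coding genes (6.5%). Peak genes showed the reverse, at 1.14%, 0.578% and 11.2%. Probe sets without a gene name went the same way as the small RNAs: 33.3% of 12083 lay below all 4 other arrays in both INM arrays and 7.13% above, with a median difference of -0.23. The unnamed probe sets had array medians of 5.62 and 5.65 for hESC, 5.11 and 5.04 for INM, and 5.34 and 5.31 for SMC. With genes cut by mean level into 3 groups of equal size, 3.11% of the lowest group were peak and 8.81% dip genes, and in the highest group 18.0% and 5.38%. Centring each array on its unnamed probe sets, chosen after seeing the data, moved the median contrast of all genes from -0.00 to 0.40 and left 275 dip genes. Such centring moves every class by the same amount: the median of snoRNA genes went from -0.45 to -0.04 and that of miRNA genes from -0.25 to 0.15, which turns the sign for miRNA genes. The part of low signal in the dips was not tested.

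Among the lists, chosen with earlier results of these data known, interferon-stimulated genes had the highest share of dips. Of 19 measured, 5 (26.3%) dipped, beside 7.17% of all genes, with 7 called lower and 0 higher. IFITM2 and IFITM3 dipped with IFITM1 (contrasts -1.08 and -1.10, adjusted p = 5.7e-03 and 6.1e-03), but the 3 are near-identical copies and may share signal. IFIT2 lay under 5.04 on all 6 arrays and IFIT3 on both INM arrays, and the IFIT3 call was lost without the first hESC array or either SMC array (adjusted p up to 0.0915). The list's median was -0.30 and turned to 0.11 with centring on unnamed probe sets. TAS2R genes, the bitter taste receptors, were singled out after their values were seen: 12 of 24 dipped and 0 rose, with a median of -0.77, and the sign was the same under each scaling. TAS2R14 read 7.79 and 7.91, 5.45 and 6.03, and 7.39 and 7.44 (contrast -1.89, SE 0.17, adjusted p = 8.8e-04). Several TAS2R genes resemble each other closely, so single members are uncertain.

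Promoter windows of 300 bases, 250 before and 50 after the start, matched 14237 of the 18417 genes, 1576 of the 1933 peak genes and 942 of the 1321 dip genes. The median GC content was 66.7% in peak genes, 60.0% in dip genes and 63.0% in all genes, and the median count of CpG was 27, 18 and 23. GC content also goes with signal: it was 54.7% in protein-coding genes of the lowest such group and 66.0% in those of the highest. Motifs were searched on both strands. The SMAD motif GGCGCC was found in 31.7% of peak windows, 19.9% of dip windows and 25.9% of all. The GATA motif (the letters GATA after A or T and before A or G) was found in 14.1%, 26.8% and 19.5%, and the homeobox motif TAATTG in 3.36%, 7.96% and 5.68%. For the LEF/TCF motif (CTTTGAT or CTTTGAA) the shares were 4.19%, 5.63% and 5.53%, and for the T-box motif AGGTGTGA they were 0.635%, 1.06% and 0.85%. The GC-rich motif was thus more frequent, and the AT-rich ones less frequent, in the windows of higher GC content, and base composition and motif cannot be told apart by these shares.

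Markers of other lineages were counted in the same way. Over all genes, 10.5% were peak and 7.17% dip genes, and 13.8% were called higher and 10.3% lower. No endothelial marker among 16 was a peak gene. Of 14 definitive endoderm markers, only the apolipoprotein APOA2 was called (contrast 1.04, adjusted p = 1.4e-03). Of 13 cardiomyocyte markers, the atrial light chain MYL7 peaked (contrast 0.99, adjusted p = 4.5e-03) and the sarcomere protein TTN dipped (contrast -1.28, adjusted p = 7.1e-04), with its INM and SMC values all at or under 4.80. Of 16 neuroectoderm markers, 3 (18.8%) were peak genes, beside 10.5% of all genes, and 1 was called lower. MAP2, a dendritic microtubule protein, read 6.41 and 6.26, 8.74 and 8.63, and 6.35 and 6.27 (contrast 2.36, SE 0.10, adjusted p = 7.6e-05), whereas NES moved by 0.85 (adjusted p = 6.8e-03) and OTX2 was called lower. Of 24 DNA replication genes, 2 were called higher, and of 20 mitosis genes limma called 0, with 1 at an unadjusted p under 0.05. Of 23 pluripotency genes, 5 were called higher and 11 lower, with a median contrast of -0.56, and 2 (8.7%) were peak genes. LIN28B, a paralog of LIN28A, was a peak gene at 9.27 and 9.97 in INM, against 8.82 and 9.06 in hESC and 7.02 and 6.48 in SMC (contrast 1.78, adjusted p = 3.8e-03), and SALL1 was the other (contrast 0.86, adjusted p = 2.6e-03).

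The remaining lists can be given by their counts. Over all genes, 13.8% were called higher and 10.3% lower, with 10.5% peak and 7.17% dip genes. Of 17 epithelial markers, 9 were called higher and 2 lower, and DSP and CLDN4 (contrast 0.81, adjusted p = 7.2e-03) were the peak genes. The mean level of these 17 was 8.64 to 8.66 in hESC, 8.13 to 8.47 in INM and 6.54 to 6.56 in SMC, so it lay below hESC at day 4. Of 13 haematopoietic markers 2 were called, CSF1R (contrast 1.14) and HBZ (contrast 0.50), and of 15 retinoic acid genes 2 were called higher and 1 lower, the dip gene ALDH1A1 (contrast -0.71), whose INM mean lay under 5.04. The calls of CSF1R, HBZ and ALDH1A1 were each lost without the second hESC array or either SMC array. Of 18 immediate early genes 4 were called higher, with KLF6 (contrast 1.02) and JUND (0.72) as peak genes. Of 11 p53 targets TP53INP1 was called higher (1.12) and RRM2B lower (-0.39). Of 20 ATF4 stress genes 4 were called lower and 0 higher, and of these the dip gene was PSAT1 (contrast -0.55), an enzyme of serine synthesis. Of 15 cholesterol synthesis genes 1 was called higher, SC5D (0.57), and 1 lower, PMVK (-0.40). KLF6, TP53INP1, RRM2B, PSAT1, SC5D and PMVK each lost the call without at least 1 hESC or SMC array, and RRM2B and PMVK turned sign with centring on unnamed probe sets. Of 16 glycolysis genes, 6 were called higher and 4 lower, with 4 peak genes led by the glucose transporter SLC2A3 (contrast 1.39, adjusted p = 2.6e-03) and 4 dip genes led by ENO2 (contrast -1.06, adjusted p = 8.3e-03). Of these, 1 peak gene and 2 dip genes held in all 6 fits that left out an array: HK1, PFKM, PFKP and GPI lost the call without any 1 hESC or SMC array, and HK2 without the second SMC array (adjusted p up to 0.0511). After quantile normalization 1 peak gene was left, and GPI turned sign with centring on unnamed probe sets.

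The edge of the non-overlap limit is narrow. ZNF410 was just inside on the upper side, at 8.07 and 8.01 in INM against 6.76 to 8.01, and GGNBP2 was just outside at 8.54 and 8.68 against 7.59 to 8.54. On the lower side SLC52A3 was just inside at 6.01 and 5.82 against 6.01 to 6.82, and COLEC10 just outside at 4.66 and 4.73 against 4.73 to 6.79.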

How the data were processed

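The deposited table holds log2 expression values that the authors made with RMA, per the submitters' processing notes, which also name limma, without versions. For the RMA settings and the genome build, the sources used here give nothing. Gene names came from the platform's annotation: 19460 of 33297 carried 1 symbol, 1754 several and 12083 none. For 769 genes with several probe sets the one with the highest mean was kept, which left 18417 genes. The 3 group means were estimated from all 6 arrays together in limma 3.58.1 in R 4.3.3 (3 residual and 3.56 prior degrees of freedom). Tests were two-sided, with Benjamini-Hochberg adjustment over all genes and a threshold of 0.05. In simulated data of the day 4 contrast over 18417 genes the fit called 6% of genes shifted by 0.5, 72% of those shifted by 1 and 94% of those shifted by 2. Each simulated gene had the same spread in all 3 stages, whereas the real INM arrays were less alike than the other pairs. These shares therefore do not cover an unequal spread. Each shift was also given to only 50 genes, and 18217 had none, whereas the real contrast called 2543 genes higher and 1905 lower. Benjamini-Hochberg adjustment is less strict where more genes are called, so these shares do not carry over to the real contrast. The share of real shifts that it called was not tested. The number of arrays limits the precision.

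Named genes were the 20 peak and 15 dip genes of largest height, up to 4 peak or dip members of each of 39 lists with every member behind a count of 5 or fewer, 18 fixed markers, and 1 gene on each side of each limit. The members, the lists and the 5.04 limit were chosen with earlier results of these data known. Alternatives were other scalings, filters, priors, array weights, a replicate block, stricter peak rules and leaving out each array. Centring on unnamed probe sets was added after the data were seen. Scanner files were not used here.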

Additional observations from a re-analysis of the deposited data

How the results depend on the processing

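With 2 arrays a group, single calls of small size depend on each array. Fits without 1 INM array hold no spread between INM arrays, so a call kept in them does not test that spread. Over the fits that left out 1 array, calls ranged from 1163 to 3751 higher and from 804 to 2483 lower, peak genes from 1000 to 3121 and dip genes from 602 to 1911. SMC minus hESC calls ranged from 2154 to 4627 higher and from 1649 to 4573 lower. Of the 1933 peak genes 889, and of the 1321 dip genes 523, held in all 6. Array weights were 0.46 for each INM array, 1.31 for hESC and 1.66 for SMC, and gave 1786 genes called higher and 1148 lower. Peak genes were then 1406 and dip genes 795, and the cause was not tested. The larger p of both pairwise differences gave 403 peak and 172 dip genes, and a height of at least 1 gave 274 and 86. Centring on unnamed probe sets gave 9996 called higher, 629 lower, 8043 peak genes and 275 dip genes, with 6453 SMC minus hESC calls higher and 1640 lower. It turned the contrasts of HOXC9 to 0.058, RRM2B to 0.0087, GPI to 0.0045 and PMVK to 0.00058. The other fits of all 6 arrays used other scalings, a low-signal filter, another prior, array weights, the mean of a gene's probe sets or a replicate block. In these, 269 to 274 of the 274 peak genes of a height over 1 kept their call and position. Arrays of the same number did not deviate together (correlations 0.07, -0.12 and -0.07). These correlations cannot show whether samples of the same number were made or handled together. A replicate block gave 2247 higher, 1629 lower, 1731 peak and 1122 dip genes. Values near 5.04 lie at the level of unnamed probe sets, and folds there are not given.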

Other observations

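FREM2 and GRPR were singled out after their values were seen, as genes that changed strongly at both steps. FREM2, a basement membrane protein, was a peak gene with hESC at 8.53 and 8.70, INM at 11.03 and 10.96, and SMC at 5.45 and 4.84 (contrast 4.11). GRPR, the gastrin-releasing peptide receptor, was a dip gene with hESC at 12.41 and 12.39, INM at 7.92 and 7.87, and SMC at 9.15 and 9.29 (contrast -2.91).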
